A study of Ambystoma mexicanum with 60 samples.

Results

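The 2 poles of the axolotl (*Ambystoma mexicanum*) blastula were compared transcript by transcript at the 1K-cell stage, when the embryo has about 1000 cells. Section A holds the animal pole and section E the vegetal pole, and these are the ends of an axis that was divided into 5 sections, A to E. The values compared are those of 6 of the 59 libraries with counts (60 samples are labelled), namely sections A and E of 1K-cell replicates 1, 2 and 3, while the spread was estimated from all 15 libraries of the stage. The labels give a replicate number and do not name embryos. Each replicate is taken here as a single embryo, so that every section A was set against the section E of the same replicate. Embryos were laid naturally, were cut on a cryostat along the animal-vegetal axis, and gave rRNA-depleted, strand-specific libraries from total RNA. The other libraries come from sections B, C and D of the same embryos and from embryos at the 1-, 4- and 64-cell stages. Those stages again have 5 sections and 3 embryos each, except that section D of 1-cell replicate 3 has no counts. No genotype or treatment distinguishes the samples. Embryos came from 2 experiments with different parents, and the sources used here do not give the experiment of each embryo, so no p-value accounts for parents.

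In an amphibian egg the vegetal pole carries the yolk, and a set of maternal RNAs is anchored in its cortex while the oocyte grows. In frogs some of these RNAs belong to the germ plasm, which is inherited by the primordial germ cells (PGCs), and others direct the vegetal cells to endoderm and mesoderm. The animal pole holds the egg nucleus and little yolk, divides into smaller cells, and gives rise to ectoderm. At the blastula stage most RNA is still maternal, and transcription from the embryonic genome is beginning.

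Section A libraries held 2753105 to 5291065 counts and section E libraries 2768323 to 5128611, and between 25481 and 26719 of the 28909 transcripts had a count in section A, against 25845 to 26743 in section E. Values below are normalized counts, the estimated counts of a library divided by its size factor, in the order of replicates 1, 2 and 3. Differences are log2 of section A over section E with their standard error (SE), positive when section A was higher. They were tested with edgeR's quasi-likelihood test on all 15 libraries of the stage, with a term for embryo, and a call needed an adjusted p under 0.01 and, in 1 stage or more, a mean over embryos of more than 20 counts summed along the axis. A size factor removes any difference in total RNA, and in such bulk sections fewer cells and less RNA per cell cannot be told apart. Gene names stand for the human symbols that the authors assigned, and the same symbol can stand for several transcripts. Gene lists take 1 transcript per symbol, the one with the highest mean count. Lists and members were chosen with earlier results of these data known, and some genes, such as *sulf1* and *wnt5a*, are in more than 1 list. The share of a list that was called therefore describes its members and is no test of the list. The shares of all transcripts set beside them also cover sparser transcripts and those without a symbol, so the 2 are not fully alike. Of 9194 measured symbols, 687 had any called transcript, against 1346 of the 28909 transcripts. Of 10 genes that mark egg and early embryo, 8 were measured, and they summed to 3138 to 3475 in section A and 3293 to 3592 in section E. Of 10 blood cell markers 2 were measured, and they summed to 56.05 to 74.45 in section A, against 450.7 to 572.9 in section E. Nearly all of that sum is *slc4a1*, the anion exchanger of red cells and other tissues, at 56.1, 72.4 and 71.0 in section A and 572, 447 and 478 in section E. No analysed transcript carried the symbols of the globin genes *hba1* and *hbb* or of the 7 markers chosen for ovarian follicle cells. The part of blood cells in any result was not tested.

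The poles differed in 1346 of 28909 transcripts (4.66%), and most of these were vegetal. Only 223 transcripts (0.771%) were higher in section A, while 1123 (3.88%) were higher in section E. The difference was also of another size at the 2 ends. Transcripts called higher in section A had a median difference of 0.55 (quartiles 0.453 and 0.682), and 17 of 223 reached 2-fold. Those called higher in section E had a median of -1.52 (quartiles -2.71 and -0.961), with 822 of 1123 past 2-fold, 241 past 8-fold and 43 past 64-fold. The values of the 3 embryos did not overlap between the poles in 216 of the 223 and in 1121 of the 1123, where 6582 (22.8%) of all transcripts do not overlap. Human symbols were attached to 76.2% of the transcripts higher in section A, to 52.1% of those higher in section E and to 56.2% of all transcripts.

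The number of calls, and of animal ones above all, depended on the libraries in the fit, the tool, the embryos and the scaling. A fit of only the 6 libraries of sections A and E called 165 transcripts, 2 higher in section A and 163 higher in section E. DESeq2 on the 15 libraries called 2559, 756 higher in section A and 1803 higher in section E. Without replicate 1, 2 or 3 there were 5, 13 and 15 transcripts higher in section A, and 386, 439 and 428 higher in section E. Of the animal calls, 207 of 223 were made in none of these 3 fits and 0 in all of them, against 539 and 278 of the 1123 vegetal calls. Section A held 16.6% of the calls, but with library size as the only scaling it held 34.8%, with 527 transcripts higher in section A and 988 higher in section E. That scaling moved the median of all transcripts to 0.10, from 0.01 with size factors. Without the term for embryo, that is without the pairing of sections, 95 were higher in section A and 992 in section E.

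**Figure D1:**
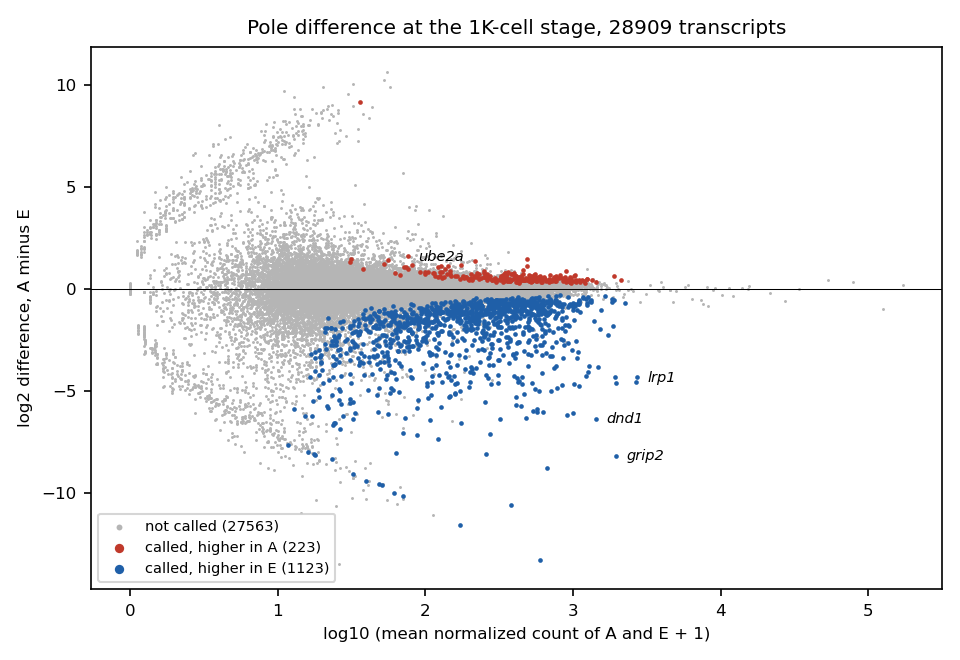
Each point is 1 transcript, with log10 of its mean normalized count over sections A and E plus 1 on the x axis and the log2 difference of section A over section E on the y axis; coloured points are the 223 transcripts called higher in section A and the 1123 called higher in section E. Vegetal calls extend much further from 0 (median -1.52) than animal calls (median 0.55).

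RNAs of germ plasm proteins were among the steepest vegetal transcripts. *Grip2*, a scaffold protein that frog germ plasm contains, had 13.6, 10.9 and 16.0 counts in section A, against 4996, 2906 and 3843 in section E (difference -8.17 ± 0.26, adjusted p = 1.95e-08). *Dnd1*, an RNA-binding protein that protects germ cell mRNAs, had 50.0, 24.6 and 34.4 in section A and 3138, 2663 and 2686 in section E (-6.36 ± 0.21, adjusted p = 2.06e-08). *Nanos1*, a translational repressor needed in germ cells, had 78.8, 71.7 and 87.0 in section A and 2336, 1721 and 2280 in section E (-4.72 ± 0.12, adjusted p = 9.56e-09). The poles were far apart in every embryo for all 3 genes. *Tfap2c*, a transcription factor of early germ cells and ectoderm in mammals, had 39.4, 27.5 and 22.9 in section A and 2134, 1778 and 2039 in section E (-6.07 ± 0.14, adjusted p = 9.56e-09). With 1 transcript per symbol, these 4 were the vegetal calls among 23 measured germ plasm and PGC genes (17.4%, against 3.88% of all transcripts). Each of the 4 was also called whichever embryo was left out. Over all 36 transcripts of the 23 genes, 5 were called higher in section E and 1 in section A.

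The other germ cell genes were mostly not called. The list had a median difference of 0.04, where all transcripts had 0.01, and 18 of its 23 genes were not called. *Ddx6*, an RNA helicase of cytoplasmic granules, was higher in section A (995, 1092 and 1167 against 835, 874 and 792 in section E, 0.38 ± 0.06, adjusted p = 0.00387), but not in any fit without an embryo. *Ddx4*, the Vasa helicase, had a difference of 0.45 (adjusted p = 0.077), *dazl*, a germ cell translation factor, -0.84 (adjusted p = 0.37), and *tdrd6*, a Tudor protein, 0.55 (adjusted p = 0.012). None of these 3 passed.

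Other germ cell markers of the study were less steep or depended on the transcript. *Velo1*, a germ plasm organizer of frogs and fish, had 138, 186 and 238 in section A and 1600, 1914 and 2292 in section E (-3.37 ± 0.16, adjusted p = 3.35e-07). A further *velo1* transcript had 200, 132 and 199 in section A and 672, 514 and 37.9 in section E, where the third embryo went the other way (-1.31 ± 0.82, adjusted p = 0.429). *Rbpms2*, an RNA-binding protein of the oocyte, had 362, 315 and 376 in section A and 642, 690 and 478 in section E, which do not overlap but missed the threshold (-0.79 ± 0.20, adjusted p = 0.0364). A weaker *grip2* transcript was not counted in section A at all and had 146, 100 and 135 in section E. It was not called (adjusted p = 0.0126). The last *grip2* transcript lay between 12.3 and 22.7 in section A and between 10.6 and 40.1 in section E, so the poles overlapped.

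The other vegetal leaders by size were not germ cell genes as a group. Among vegetal calls with a symbol and a mean of at least 100 counts in section E, the 15 largest differences were -8.17 to -5.00, and in all 15 the section means rose in order from A to E. Of their normalized counts summed over the 5 sections of an embryo, 0.273 to 1.95% were in section A and 57.9 to 77.2% in section E (mean of 3 embryos). *Hspa12a*, a distant member of the HSP70 family, had 1.51, 0.724 and 3.44 in section A, against 617, 418 and 494 in section E (-8.07 ± 0.42, adjusted p = 5.96e-07). The 2 poles thus differed by far more than the embryos did.

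*Gng7*, a G protein gamma subunit, had a difference of -6.14 ± 0.22. *Amer2*, which binds the Wnt pathway protein APC at the membrane, had -5.66 ± 0.18, and *saysd1* had -5.00 ± 0.16 (adjusted p between 1.94e-08 and 2.83e-08 for these 3). *Kiaa1324l*, a transmembrane protein, had 7.58, 20.3 and 17.2 in section A and 1127, 951 and 1092 in section E. *Armc10*, which counted 0, 1.45 and 2.29 in section A, had 218, 220 and 280 in section E (-7.36 ± 0.59). Of the 15, 11 were called in all 3 fits without an embryo, among them the genes named so far, and the other 4 were less stable. *Sulf1*, a sulfatase that trims heparan sulfate, *tmem19* and *efna4*, an ephrin ligand, kept the call in 1 of these 3 fits, and *crip2*, a LIM domain protein, in 0. *Tmem19* had 0, 7.24 and 0 in section A, against 110, 212 and 189 in section E.

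**Figure D2:**
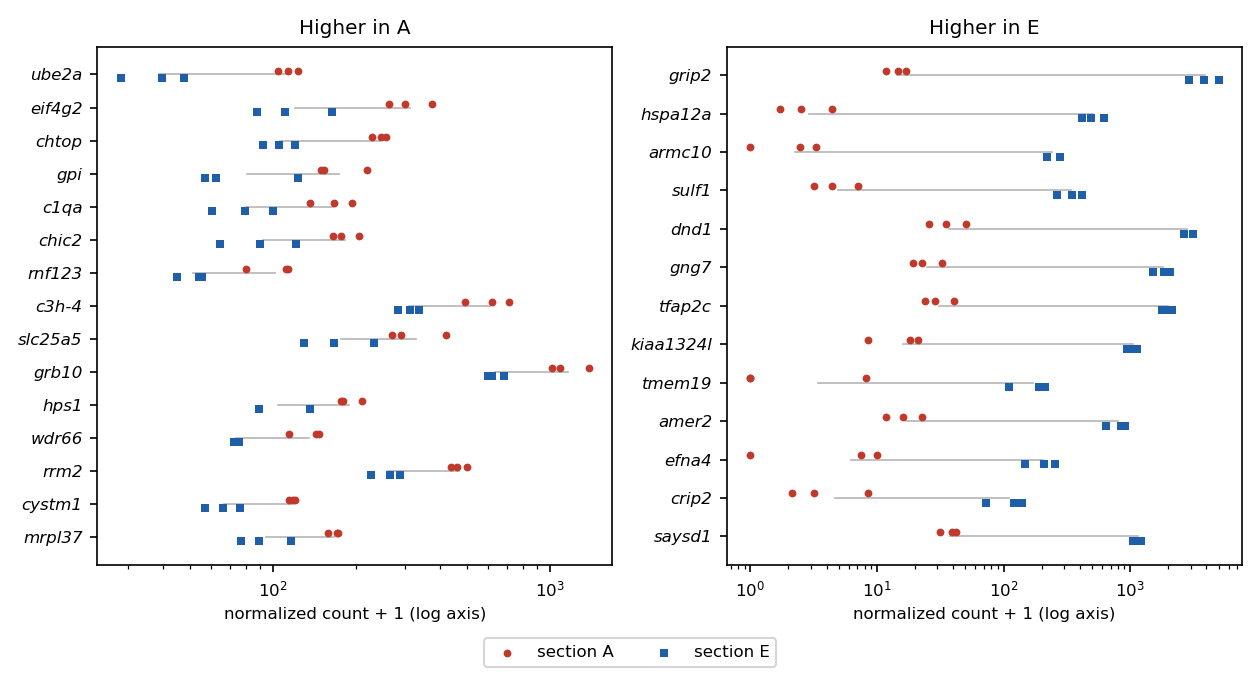
Normalized counts plus 1 (log axis) of leading transcripts of each pole (15 animal and 13 vegetal), with 1 point per embryo in section A and in section E. In the vegetal leaders the poles are separated by differences of -8.17 to -5.00, and in the animal leaders by 0.83 to 1.61.

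A few transcripts were counted at 1 pole only. Section A held 0 counts in all 3 embryos for 13 of the vegetal calls, and section E for 1 of the animal calls. The highest of the 13 is AMEXTC_0340000041503, which has no symbol. It had 0 counts in the 3 sections A and 1500, 835.2 and 1273 in sections E, so that section E was at least 1168-fold higher, taking 3 counts over the 3 libraries in place of 0. *Tbc1d13*, a GTPase-activating protein for Rab proteins, had 0 in section A and 110.3, 50.9 and 72.7 in section E, at least 75.7-fold higher there. The animal case, AMEXTC_0340000226462, was unlike the rest of its group, with 98.5, 52.1 and 61.9 in section A and 0 in every section E, which makes section A at least 61.3-fold higher. Its means were 72.6 in section B, 51.7 in section C and 0 in section D, and it was called in 1 of the 3 fits without an embryo. *Mars*, another symbol with 0 counts in section A and at least 32.5-fold higher in section E, had means of 28.1, 22.4 and 22.8 in sections B, C and D, so that its profile stepped at section A alone.

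Among these lists, chosen with earlier results known, that of extracellular matrix held the largest share of vegetal calls. Of its 19 measured genes 9 (47.4%) were higher in section E and 0 in section A, with a list median of -0.84, against 3.88% and 0.01 over all transcripts. *Hmmr*, the hyaluronan-mediated motility receptor, which also acts at the spindle, had 242, 194 and 214 in section A and 4909, 4804 and 5623 in section E (-4.57 ± 0.18, adjusted p = 5.33e-08). *Sulf1* had 42.4, 44.9 and 28.6 in section A and 968, 704 and 725 in section E, in a transcript other than its leader. The laminin chains, which build the basement membrane, were vegetal in 3 of 4 genes. *Lamc1* had 788, 863 and 851 in section A and 3145, 2560 and 3055 in section E (-1.80 ± 0.08), *lama5* had -1.61 ± 0.09 and *lamb1* -0.61 ± 0.07. *Lama1* had 0.18 (adjusted p = 0.67). *Itga6*, a laminin receptor subunit, had 250, 290 and 286 in section A, against 1292, 1061 and 1232 in section E (-2.11 ± 0.09). Its partner *itgb1* had -0.63 ± 0.08 and the laminin binder *nid2* -0.84 ± 0.10. Fibronectin (*fn1*) varied more, with 580, 743 and 260 in section A and 1995, 1153 and 1348 in section E (-1.51 ± 0.27, adjusted p = 0.0062). Without 1 embryo, 5 to 6 of the 19 genes were called.

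Endocytic receptors and their adaptors were called mostly at the vegetal pole. Of 20 measured genes 1 (5.0%) was higher in section A and 7 (35.0%) in section E, against 0.771% and 3.88% of all transcripts (list median -0.22). *Lrp1*, a large endocytic receptor of the LDL receptor family, had 258, 282 and 212 in section A, against 6787, 3795 and 4931 in section E (-4.32 ± 0.17, adjusted p = 5.44e-08). The poles were far apart in all 3 embryos. *Lrpap1*, the chaperone of LRP receptors, had -0.91 ± 0.09, *sorl1*, a sorting receptor, -0.73 ± 0.06, the transferrin receptor *tfrc* -0.63 ± 0.09 and *vldlr*, whose chicken counterpart takes up yolk precursor, -0.56 ± 0.10. *Ap2s1*, a subunit of the AP-2 adaptor, had -1.54 ± 0.14. Clathrin heavy chain (*cltc*) went the other way, at 1168, 1022 and 1017 in section A and 846, 847 and 836 in section E (0.34 ± 0.07, adjusted p = 0.00927). It lost the call whichever embryo was left out, and vegetal calls numbered 3 to 5 in those fits.

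Lysosomal enzymes were vegetal in 12 of 35 measured genes (34.3%), against 3.88% of all transcripts, and animal in 0, with a median of -0.57 and 2 genes above 0, where 51.0% of all transcripts were. *Ppt1*, a lysosomal thioesterase, had 3.03, 14.5 and 5.73 in section A and 81.6, 82.4 and 75.7 in section E (-3.31 ± 0.44, adjusted p = 6.82e-04). It is sparse, but the poles did not overlap. Smaller differences were those of *gaa*, the acid glucosidase, with -1.35 ± 0.16, *ctsa*, a carboxypeptidase, -1.27 ± 0.16, *psap*, the saposin precursor, -1.26 ± 0.14, and *ctsd*, which processes yolk protein in amphibian eggs, -1.03 ± 0.14. The fits without an embryo called 1 to 3 of the 35.

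Genes of folding and glycosylation in the endoplasmic reticulum were higher in section E in 11 of 41 cases (26.8%, against 3.88% of all transcripts) and in section A in 0, with a median of -0.31. *Hsp90b1*, the reticulum's HSP90 chaperone, had 595, 468 and 411 in section A and 1229, 920 and 1086 in section E (-1.14 ± 0.09, adjusted p = 1.11e-05). The disulfide isomerases *pdia3*, *pdia6*, *txndc5* and *p4hb* had -1.11 ± 0.11, -1.06 ± 0.13, -1.05 ± 0.10 and -0.76 ± 0.12. *Rpn2*, a subunit of the oligosaccharyltransferase, had -1.42 ± 0.12 and *ppib*, a prolyl isomerase, -1.27 ± 0.13. Without 1 embryo, 3 to 6 of the 41 were called.

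Of 19 measured genes for mesendoderm and vegetal fate, 7 (36.8%, against 3.88% of all transcripts) were higher in section E and 0 in section A, with a median of -0.59. *Wnt5a*, a secreted ligand of cell movements, had 100, 144 and 114 in section A and 706, 755 and 728 in section E (-2.60 ± 0.12, adjusted p = 1.82e-07). *Efnb1*, an ephrin ligand of cell boundaries, had 109, 130 and 113 in section A and 2974, 1681 and 2342 in section E (-4.24 ± 0.19, adjusted p = 1.49e-07). *Furin*, the convertase that activates TGF-beta ligands, had 280, 272 and 168 in section A and 1142, 1039 and 957 in section E (-2.13 ± 0.14). Each of these poles was separated in all 3 embryos. *Smad2*, which carries the Nodal signal to the nucleus, had -1.05 ± 0.13, and *bicc1*, an RNA-binding protein with vegetal RNA in frogs, -2.40 ± 0.41. Brachyury (*tbxt*), the mesodermal T-box factor, was sparse at 25.8, 30.4 and 11.4 in section A and 91.7, 89.7 and 54.5 in section E (-1.80 ± 0.31, adjusted p = 0.00378). *Tbxt* and *bicc1* were called in none of the 3 fits without an embryo. *Gdf1*, the gene to which frog Vg1 is related, had -0.59 (adjusted p = 0.10) and *eomes*, another T-box factor, -0.36 (adjusted p = 0.16), neither of them called.

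Wnt pathway genes were vegetal in 4 of 34 cases (11.8%, against 3.88% of all transcripts) and animal in 0, with a median of -0.20. Besides *wnt5a* these were *znrf3*, a ubiquitin ligase that removes Frizzled receptors (121, 115 and 116 in section A against 616, 439 and 536 in section E, -2.16 ± 0.14), *pygo1*, a nuclear cofactor (-1.38 ± 0.23), and the receptor *fzd3* (-0.60 ± 0.10). Only *wnt5a* and *znrf3* were called whichever embryo was left out. The other 30 members were not called. They ran from -5.37 for the receptor *fzd7* (adjusted p = 0.0214) through -0.50 for the kinase *csnk1a1* (adjusted p = 0.07) and -0.35 for the coreceptor *lrp6* (adjusted p = 0.03) to values near 0 such as 0.04 for *ctnnb1*, the beta-catenin gene (adjusted p = 0.86), and up to 1.67 for *tcf7l1*, a transcription factor of the pathway (adjusted p = 0.35). The BMP list had 1 call at each pole among 18 genes (5.56% each). Of all transcripts 0.771% were called higher in section A and 3.88% in section E. The transducer *smad1* was higher in section A (436, 486 and 407 against 288, 271 and 235 in section E, 0.75 ± 0.11, adjusted p = 0.0016), while the type I receptor *acvr1* was higher in section E (386, 410 and 385 in section A, 698, 742 and 762 in section E, -0.90 ± 0.09). The median of this list, -0.055, turned to 0.04 with library size as the only scaling. Each of the 2 calls held in 1 of the 3 fits without an embryo.

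Genes of ectoderm and animal fate were called once at each pole among 11 (9.09% each, against 0.771% and 3.88% of all transcripts). *Atrx*, a chromatin remodeller, was higher in section A (1519, 1382 and 1460 against 881, 1064 and 1190 in section E, 0.48 ± 0.08, adjusted p = 0.00335). *Rest*, the repressor of neuronal genes, was higher in section E (304, 280 and 368 in section A, 710, 677 and 781 in section E, -1.20 ± 0.11, adjusted p = 3.3e-05). *Atrx* lost its call whichever embryo was left out, and *rest* kept it. The ectodermal factors *tp63* and *zic2* had -0.11 and 0.16 and were not called.

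Junction and polarity genes had 5 vegetal calls among 41 (12.2%, against 3.88% of all transcripts) and 0 animal ones. E-cadherin (*cdh1*) had 460, 411 and 399 in section A and 1117, 803 and 931 in section E (-1.15 ± 0.08, adjusted p = 2.98e-06). The desmosomal cadherin *dsg2* had 638, 676 and 680 in section A and 1455, 1271 and 1314 in section E (-1.01 ± 0.07, adjusted p = 7.09e-06). *Nectin2* had -1.75 ± 0.16, *epcam* -0.81 ± 0.07 and the polarity protein *pard6g* -0.33 ± 0.06. The catenins, which act at cadherin junctions, were not called, with 0.28 for *ctnna1* (adjusted p = 0.16) and -0.02 for *ctnnd1*. The list median was -0.10 and became 0.00 with library size as the only scaling, and 3 to 4 of the 41 were called without 1 embryo.

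Genes with SLC symbols had 2 animal calls (1.22%) and 22 vegetal ones (13.4%) among 164, against 0.771% and 3.88% of all transcripts, with a median of -0.20. Most are solute carriers, which move small molecules across membranes. A few are not, such as *slc9a3r2* and *slc4a1ap*, neither of them called. *Slc12a9*, a relative of the cation-chloride cotransporters, had 65.1, 65.2 and 50.4 in section A and 1836, 1434 and 1559 in section E (-4.71 ± 0.17, adjusted p = 3.44e-08). *Slc6a9*, a glycine transporter, had 40.9, 36.2 and 27.5 in section A and 990, 616 and 854 in section E (-4.52 ± 0.16, adjusted p = 2.83e-08). The mitochondrial glutamate carrier *slc25a22* had -4.29 ± 0.31, *slc25a30* -3.21 ± 0.26 and the coenzyme A carrier *slc25a42* -2.83 ± 0.15. *Slc4a1*, named above for blood, had -2.87 ± 0.15 (adjusted p = 6.42e-07). The animal calls were the mitochondrial carriers *slc25a5*, which exchanges ADP and ATP (421, 267 and 290 in section A, 231, 166 and 129 in section E, 0.90 ± 0.16), and *slc25a37*, which imports iron (0.46 ± 0.08). Both lost the call whichever embryo was left out, and 10 to 12 of the 164 were then vegetal.

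Lipid genes were animal in 1 of 32 cases (3.12%) and vegetal in 5 (15.6%), against 0.771% and 3.88% of all transcripts (list median 0.05). *Scd*, the desaturase that makes monounsaturated fatty acids, had 63.6, 89.1 and 92.8 in section A and 958, 605 and 663 in section E (-3.11 ± 0.20, adjusted p = 2.73e-06). *Acsl4* and *acsl1*, both of which activate fatty acids, lay at opposite poles. *Acsl4* had 412, 368 and 545 in section A and 1207, 1331 and 1182 in section E (-1.49 ± 0.16), and *acsl1* had 782, 749 and 708 in section A and 486, 592 and 527 in section E (0.48 ± 0.08, adjusted p = 0.00446). *Acsl1* was called in no fit without an embryo. *Plin2*, which coats lipid droplets, had 732, 588 and 658 in section A and 1183, 1245 and 1175 in section E (-0.87 ± 0.12), and its other transcript had -0.22 ± 0.22 and was not called. Without 1 embryo, 3 of the 32 lipid genes were called vegetal.

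RNAs of the oocyte itself were called only at the vegetal pole by edgeR with size factors. Of 16 measured genes of oocyte and egg coat 2 (12.5%, against 3.88% of all transcripts) were higher in section E, with a median of 0.05. These were *zp3*, an egg coat glycoprotein (117, 105 and 110 in section A, 218, 187 and 204 in section E, -0.88 ± 0.11), and *bmp15*, an oocyte growth factor (-0.51 ± 0.09). Both lost the call whichever embryo was left out. With library size as the only scaling the list had 2 animal and 2 vegetal calls, and by DESeq2 1 and 2. *Mos*, the kinase that arrests the egg in meiosis, had -0.08 (adjusted p = 0.91) and *gdf9*, another oocyte growth factor, -0.03 (adjusted p = 0.89). In the list of mRNA decay and poly(A) control, *parn*, a ribonuclease that shortens poly(A) tails, stood apart with 238, 202 and 235 in section A and 1548, 1475 and 1490 in section E (-2.75 ± 0.14, adjusted p = 5e-07). *Cnot6*, a deadenylase of the CCR4-NOT complex, had -0.79 ± 0.11 and kept its call in 1 fit without an embryo, *parn* in all 3. The list of 51 genes had 2 vegetal calls (3.92%), 1 animal call, *ddx6* (1.96%, against 0.771% of all transcripts), and a median of 0.12.

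**Figure D3:**
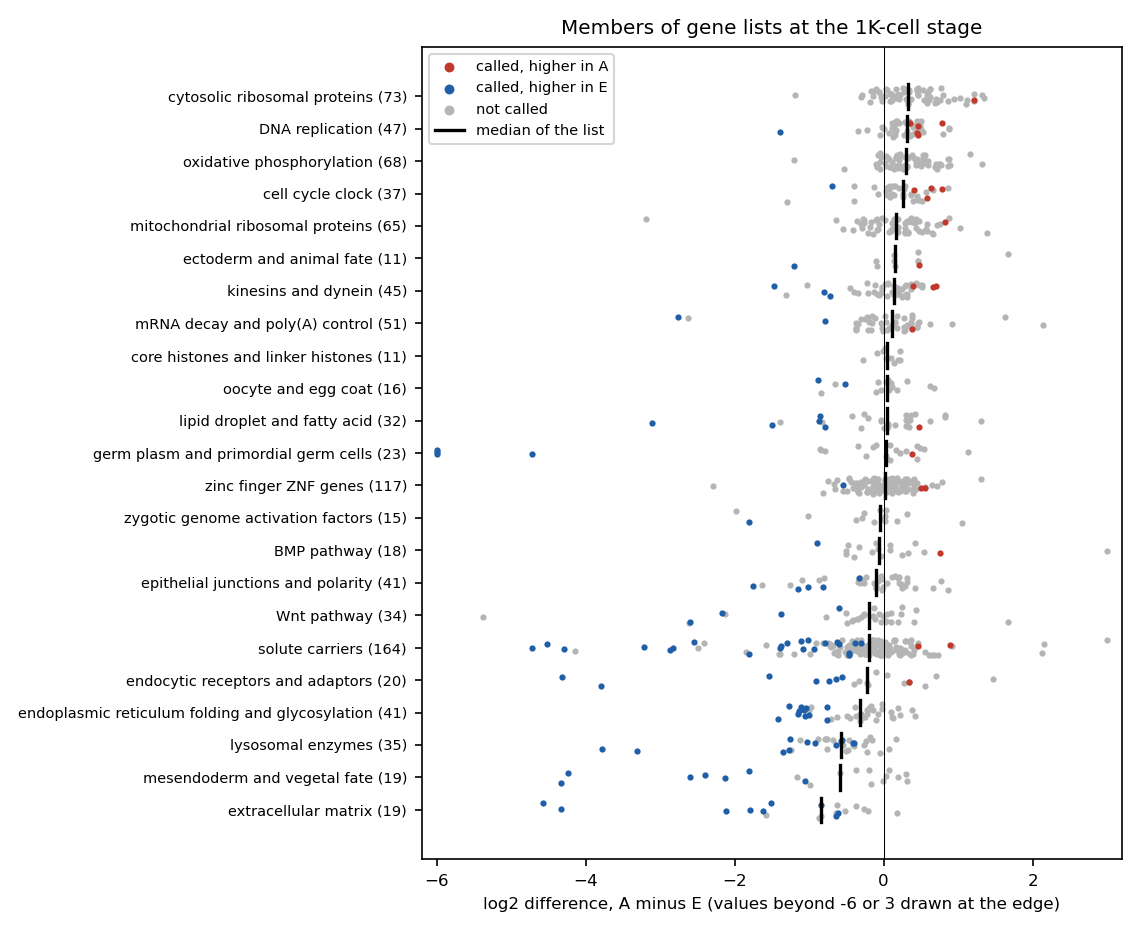
Log2 differences of section A over section E for the measured members of each gene list with at least 11 members, 1 point per gene, with called genes coloured by pole and the list median as a bar. Values beyond -6 or 3 are drawn at the edge; extracellular matrix (median -0.84), mesendoderm (-0.59) and lysosomal enzymes (-0.57) lie lowest.

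Animal leaders were modest in size. Among animal calls with a symbol and a mean of at least 100 counts in section A, the 15 largest differences were 0.83 to 1.61 and did not overlap between the poles in any case, but the section means ran in order along the axis in 6 of 15. They had 23.2 to 30.7% of their summed section means in section A, against 10.1 to 16.8% in section E, and 13 of the 15 were called in none of the fits without an embryo. *Ube2a*, a ubiquitin-conjugating enzyme of DNA damage tolerance, had 112, 122 and 103 in section A and 27.2, 38.8 and 46.9 in section E (1.61 ± 0.22, adjusted p = 9.14e-04). *Eif4g2*, a translation initiation factor, had 261, 374 and 299 in section A and 162, 109 and 86.3 in section E (1.40 ± 0.20, adjusted p = 0.00119, called in 1 of these fits). *Chtop*, an mRNA export factor, had 245, 226 and 255 in section A and 105, 119 and 90.8 in section E (1.20 ± 0.20, adjusted p = 0.00387).

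The other animal leaders differed by less. A CCCH zinc finger transcript with the symbol *c3h-4* had 712, 616 and 491 in section A and 311, 335 and 282 in section E (0.95 ± 0.12, adjusted p = 3.99e-04), and was the leader most often called without an embryo, in 2 of 3 fits. *Grb10*, an adaptor of insulin receptor signalling, had 1382, 1082 and 1019 in section A and 682, 595 and 615 in section E (0.88 ± 0.13, adjusted p = 0.00167). *Rrm2*, the ribonucleotide reductase subunit that makes DNA precursors, had 462, 440 and 502 in section A and 264, 225 and 288 in section E (0.86 ± 0.14, adjusted p = 0.00235). In these 3 the lowest embryo of section A was above the highest of section E. The glycolytic enzyme *gpi* had 1.15 ± 0.22, the complement chain *c1qa* 1.07 ± 0.19, *chic2* 1.00 ± 0.18, the ubiquitin ligase *rnf123* 0.99 ± 0.17, and *hps1*, which acts in the making of lysosome-related organelles, 0.87 ± 0.13. *Wdr66* with 0.87 ± 0.14, *cystm1* with 0.83 ± 0.12 and the mitochondrial ribosomal protein *mrpl37* with 0.83 ± 0.16 completed the group with *slc25a5*.

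Genes of DNA replication were called mostly at the animal pole. Of 47 measured, 5 (10.6%) were higher in section A and 1 (2.13%) in section E, against 0.771% and 3.88% of all transcripts. A difference above 0 was found in 41 of them, against 51.0% of all transcripts, and the median was 0.315, against 0.01. *Pole2*, a subunit of DNA polymerase epsilon, had 133, 127 and 171 in section A and 75.9, 87.2 and 84.8 in section E (0.79 ± 0.13, adjusted p = 0.00308). The helicase subunit *mcm7* had 1633, 1551 and 1482 in section A and 1123, 1172 and 1083 in section E (0.46 ± 0.08, adjusted p = 0.00479). *Orc1* of the origin recognition complex had 0.46 ± 0.08, *prim2* of primase 0.45 ± 0.08 and the fork protein *wdhd1* 0.36 ± 0.07. *Recql4*, a helicase of replication initiation, was higher in section E but uneven, at 273, 84.7 and 150 in section A and 572, 312 and 385 in section E (-1.39 ± 0.26). None of these 6 was called once an embryo was left out, whichever it was, and the animal calls numbered 2 without the pairing and 9 with library size as the only scaling.

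Cell cycle genes were animal in 4 of 37 cases (10.8%) and vegetal in 1 (2.7%), against 0.771% and 3.88% of all transcripts, with a median of 0.255. *Bub1b*, a kinase of the spindle checkpoint, had 477, 470 and 373 in section A and 236, 262 and 268 in section E (0.78 ± 0.09, adjusted p = 3.28e-04). The DNA damage kinase *atr* had 0.64 ± 0.11, *cdk2*, the kinase of S phase entry, 0.58 ± 0.11 and *cdk4*, a kinase of G1, 0.41 ± 0.08. For *cdk4* the poles overlapped, with 513.6, 422.2 and 355.1 in section A and 379.6, 294.0 and 292.2 in section E. *Fzr1*, the activator of the anaphase-promoting complex in G1, was higher in section E (495, 524 and 495 in section A, 901, 761 and 798 in section E, -0.69 ± 0.07, adjusted p = 1.28e-04). Of the 5 calls, 3 were lost whichever embryo was left out, and *bub1b* and *fzr1* held in 1 of 3 fits. Among 45 motor genes *dync1h1*, the heavy chain of cytoplasmic dynein, was animal with 948, 867 and 761 in section A and 531, 480 and 572 in section E (0.70 ± 0.09, adjusted p = 7.29e-04), as were *kif5c*, a kinesin heavy chain (0.67 ± 0.11), and *nde1*, a dynein regulator (0.39 ± 0.07). The kinesins *kif13b* (-0.71 ± 0.07) and *kif14* (-0.80 ± 0.10) and *ndel1*, a close relative of *nde1* (-1.47 ± 0.26), were vegetal. The 3 animal and the 3 vegetal calls were 6.67% of the 45 each, against 0.771% and 3.88% of all transcripts. Of these 6, *dync1h1* and *ndel1* were called in 1 fit without an embryo, *kif13b* in 2 and the others in 0.

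Other lists had few or no calls, where 0.771% of all transcripts were called higher in section A and 3.88% in section E. Oxidative phosphorylation had 0 calls among 68 genes, with 58 above 0 and a median of 0.305, where 51.0% of all transcripts were above 0. Cytosolic ribosomal proteins had a median of 0.33 over 73 genes and 1 call, *rps13*, with 65.1, 84.7 and 66.4 in section A and 31.5, 29.1 and 31.8 in section E (1.22 ± 0.23, adjusted p = 0.00705). Mitochondrial ribosomal proteins had 0.16 over 65 genes and 1 call, *mrpl37*. The 117 zinc finger genes with ZNF symbols had 0.03, with *znf292* and *znf518b* animal (0.50 ± 0.06 and 0.56 ± 0.09) and *znf628* vegetal (-0.54 ± 0.08), and 11 histone genes had 0 calls and 0.05. Over all 18 transcripts of these histone genes, 1 was called higher in section A. Factors of zygotic genome activation had *tbxt* as the only call among 15 and a median of -0.05, which turned to 0.04 with library size as the only scaling. The calls of *rps13*, *mrpl37*, *tbxt* and the 3 zinc finger genes were made in no fit without an embryo.

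Among further genes of the study, *prmt1*, an arginine methyltransferase, had 980, 926 and 958 in section A and 629, 657 and 660 in section E in its most abundant transcript (0.56 ± 0.09, adjusted p = 0.00172), and its other 3 transcripts were not called. That call was made in no fit without an embryo. *Akt2*, a kinase of insulin signalling, had 918, 840 and 821 in section A and 692, 692 and 716 in section E and missed the threshold (0.30 ± 0.07, adjusted p = 0.0287). *Dusp1*, a phosphatase of MAP kinases, had 209, 206 and 166 in section A and 385, 366 and 376 in section E (-0.96 ± 0.09, adjusted p = 3.71e-05) in the called transcript of 2. *Sh3bp4*, which acts in receptor endocytosis, was called in 1 of 3 transcripts, with 78.8, 89.8 and 74.5 in section A and 327, 330 and 422 in section E (-2.13 ± 0.29). It held in 1 of the 3 fits without an embryo, and that of *dusp1* in all 3. *Ankhd1*, *rpl12*, *sys1*, *mok* and a *nynrin*-like transcript were not called. The paper places *ankhd1* in its animal category and gives *rpl12* as an example of animal enrichment among transcripts made at the 1K-cell stage. The *rpl12* transcript of the gene lists had means of 29.05 in section A and 63.76 in section E (-1.19 ± 1.26, adjusted p = 0.68). The paper may mean another transcript. Across the 4259 symbols that several transcripts share, 62 had at least 2 called transcripts, and 0 had calls at opposite poles.

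The 5 sections showed where along the axis the poles parted. Section means ran in order from A to E in 773 (68.8%) of the vegetal calls and 103 (46.2%) of the animal ones, and in 9.77% of all transcripts. Steps between neighbouring sections were taken as log2 ratios of their means, with 0.5 added to each mean. The largest step of vegetal calls lay between C and D in 565 and between D and E in 319. It lay between B and C in 168 and between A and B in 71. In counts the largest rise can lie elsewhere, as it does between D and E for *grip2* and *nanos1* below. Animal calls stepped mostly between D and E (104), then between C and D (63), B and C (34) and A and B (22). A median vegetal call had 11.8% of its summed section means in section A and 34.5% in section E, and a median animal call 23.0% and 15.8%. *Grip2* had means of 13.5, 14.0, 76.1, 1018 and 3915 in sections A to E, thus nearly all of its normalized counts were in D and E. *Nanos1*, with 79.2, 108.8, 292.2, 919.9 and 2112, was more graded. On the animal side, *dync1h1* had 858.6, 832.1, 786.5, 637.6 and 527.8, so that the fall lay past section C. Since the calls were made on sections A and E of these libraries, these profiles describe them and do not test them again.

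**Figure D4:**
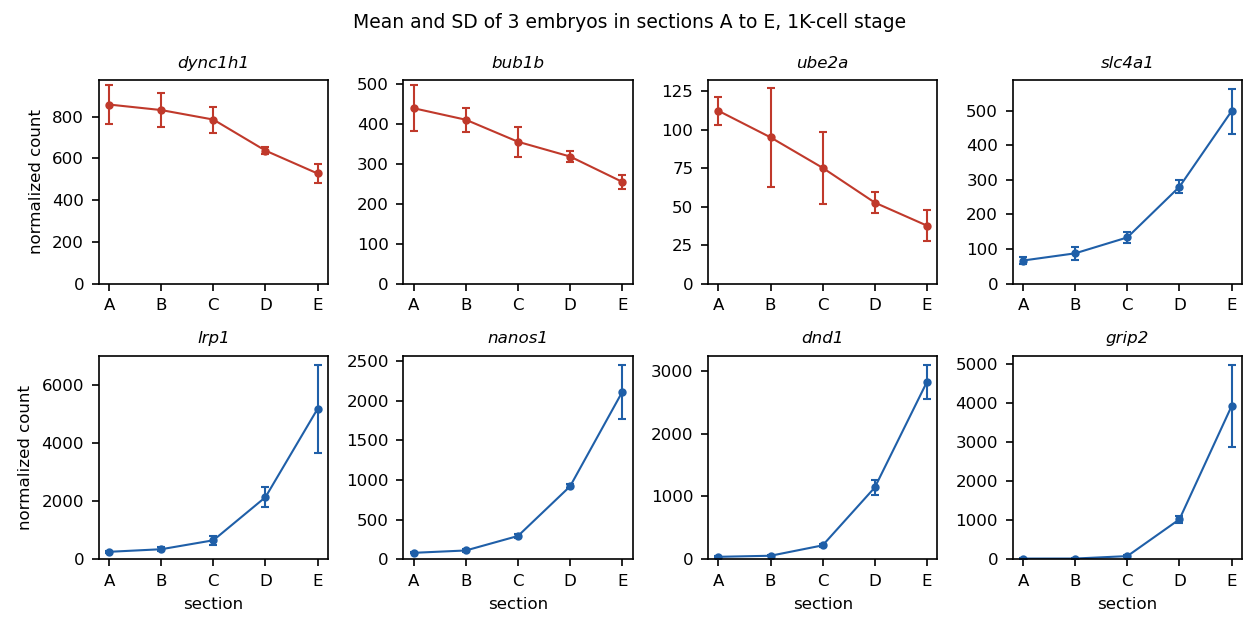
Mean normalized counts ± SD over 3 embryos in sections A to E of the 1K-cell stage for animal and vegetal transcripts. *Grip2* has 13.5 in section A and 3915 in section E with the steepest increase past section C, while *dync1h1* has 858.6 and 527.8.

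The pole difference was next compared with that of earlier stages, in a fit over all 59 libraries whose counts are normalized together and so differ slightly from those above. Against the 64-cell stage the difference changed in 0 of 28909 transcripts (0.0%) by edgeR, with a smallest adjusted p of 0.102, and 107 were called by DESeq2. An unadjusted p under 0.05 by edgeR was found for 1386. That is no more than this threshold would give over 28909 tests without any change. Against the 1-cell stage it changed in 500 transcripts (1.73%). In 420 of them (1.45%) the 1K-cell difference was the more positive, that is relatively more in section A, and in 80 (0.277%) the more negative. Of the 500, 276 were also called higher in section E at the 1K-cell stage, 9 higher in section A, and 215 were not called between the poles. Transcripts called vegetal at the 1K-cell stage had median differences of -2.34, -1.65, -1.62 and -1.52 at the 4 stages in order of age, and 1080, 1108 and 1109 of the 1123 had the same direction at the 3 earlier stages. Animal calls had 0.64, 0.62, 0.53 and 0.55, and 209, 217 and 220 of 223 had the same direction. The count of 500 became 309, 309 and 280 without 1K-cell replicate 1, 2 or 3, 247 without the term for embryo and 924 by DESeq2.

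Several vegetal genes had a smaller difference at the 1K-cell stage than at the 1-cell stage. *Nanos1* had -4.72 at the 1K-cell stage and -8.08 at the 1-cell stage, a change of 3.36 ± 0.47 (adjusted p = 9.99e-06). *Rbpms2* changed by 2.59 ± 0.22 (adjusted p = 1.08e-09), *hmmr* by 2.32 ± 0.24 and *velo1* by 2.65 ± 0.60. *Scd* changed by 2.12 ± 0.30, and the endocytic adaptor subunit *ap2s1* by 2.11. *Plin2*, *parn*, *bmp15* and *zp3* changed by 1.75, 1.56, 1.28 and 1.20. *Grip2*, *dnd1*, *tfap2c* and *lrp1* had changes of 1.52, 1.31, 1.95 and 0.95 that were not called (adjusted p = 0.226, 0.105, 0.0247 and 0.275), so a change of such size was not resolved for them. *Tbxt* moved the other way, with -1.80 at the 1K-cell stage, -1.09 at the 64-cell stage and 0.62 at the 1-cell stage, a change of -2.42 ± 0.44 between the last-named and the 1K-cell stage (adjusted p = 4.77e-04). On the animal side *eif4g2* changed by 1.23 ± 0.28 (adjusted p = 0.00825) and *znf292* by -0.58.

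**Figure D5:**
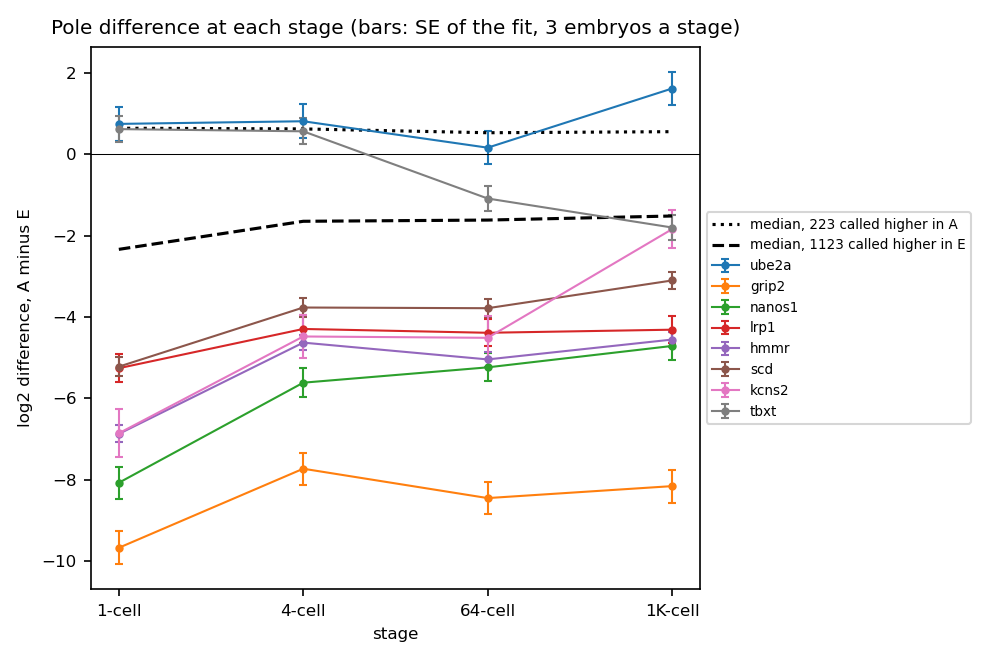
Log2 difference of section A over section E (± SE) at each of the 4 stages for single genes, with the medians of the 223 animal and 1123 vegetal calls of the 1K-cell stage. The vegetal median is -2.34 at the 1-cell stage and -1.52 at the 1K-cell stage; *tbxt* runs the other way, from above 0 at the 1-cell stage to -1.80 at the 1K-cell stage.

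Transcripts whose total rose late were seldom called between the poles. Of 885 transcripts (3.06%) with a total at least 3-fold higher at the 1K-cell than at the 64-cell stage, 4 (0.452%) were higher in section A and 15 (1.69%) in section E, against 0.781% and 3.95% of the other 28024. None of the 19 has a symbol, and of all 885 only 29 have one. Unlike the calls, the differences of all 885 leaned to the animal side, with a median of 0.35 and 654 (73.9%) above 0. The other 28024 had 0.00 and 50.2%. Of the 29 with a symbol none was called. The nearest were *rasl11b*, a Ras-like GTPase, at -1.62 ± 0.33 (adjusted p = 0.0109), and *tsg101*, an ESCRT sorting protein, at 1.19 ± 0.25 (adjusted p = 0.0126), whose embryos varied from 13.6 to 71.7 in section A and from 5.73 to 25.9 in section E. Totals of the 1K-cell stage are from the same libraries as the pole difference, and the rising transcripts had a lower median count than the others, 32.1 against 44.3.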

How the data were processed

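RNA of 5 sections per embryo was sequenced. The authors trimmed the reads with Trimmomatic, removed mitochondrial and ribosomal reads, quantified transcripts by pseudo-alignment with kallisto (0.43.1 in the submitters' notes) to a published axolotl transcriptome, and dropped transcripts that no library counted more than 30 times. The deposited values used here are estimated counts that the authors gave per transcript. All were whole numbers as deposited. The normalized counts and totals by the authors hold the same libraries again and were not used. Kallisto splits reads between similar transcripts, so values of transcripts that share a symbol are less certain than their sum.

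Sections were compared with edgeR 4.0.16 (limma 3.58.1, statmod 1.5.0, data.table version 1.17.8, R 4.3.3). The quasi-likelihood test with robust moderation used median-of-ratios size factors and terms for section and embryo over the 15 libraries of the 1K-cell stage, with Benjamini-Hochberg adjustment over 28909 transcripts. Every adjusted p of a pole difference at the 1K-cell stage comes from this test unless DESeq2 (1.42.0) is named. Stages were compared by an interaction over 59 libraries in the same kind of test, which gave the adjusted p of changes between stages. Totals of the 1K-cell and 64-cell stages were compared in the same way over the 11 embryos with all sections. Sections with the same stage and replicate number were taken to be from the same embryo. That reading of the labels, which do not name embryos, is the source of the pairing. With 3 pairs an exact sign-flip test of a single value cannot go below 0.25 (two-sided). The 3 section A libraries differed from each other by more than counting noise, as did the 3 of section E (chi-square per transcript 6.9 to 9.09). None is thus the same library counted again. These values cannot tell separate embryos from separate libraries of the same embryo. For this the sources are the replicate numbers of the labels and the paper, which states 3 biological replicates. The model was tested on simulated data.

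Genes were named by a rule: the 15 called transcripts per pole with a symbol, a mean of at least 100 counts in the higher section, the same sign in 3 embryos and the largest differences; every gene the study names; up to 4 called members per list with the smallest adjusted p; and the 5 largest called changes per direction against an earlier stage. Some genes that the rule picks are not reported here. Further list members were chosen after seeing their values. The 25 lists were written from general knowledge, taking the transcript with the highest mean count for each symbol. Members and lists were chosen with earlier results of these data known. A section at 0 in all embryos was set to 3 counts over the group for a lower bound of the fold. Alternatives were DESeq2, TMM, library size alone, a low-count filter, no term for embryo, non-robust moderation, only the 6 polar libraries, each embryo left out, a looser threshold of 0.05, only the stages compared in the interaction, and counts summed per symbol.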

Additional observations from a re-analysis of the deposited data

Results flagged for a closer look

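The pole difference at the 1K-cell stage differed from that at the 1-cell stage in 500 transcripts by the interaction test in edgeR, as described above. In the following values the difference of section A over section E at the 1K-cell stage minus that at the 1-cell stage is on the log2 scale, with normalized counts of the 3 embryos.

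The largest positive changes with a symbol were these. For *golga1*, a Golgi coiled-coil protein, it was 9.06, from a 1-cell stage with 0, 0 and 0 in section A and 235, 0 and 0 in section E, and a 1K-cell stage with 189, 242 and 209 in section A and 198, 213 and 206 in section E. That value rests on a single 1-cell embryo and on zeros, and is no fold. For *fut4*, a fucosyltransferase, it was 5.62 and rests on a single 1K-cell library, with 0, 0 and 16.3 in section A and 0, 0 and 0 in section E, where 1-cell embryos had 53.4, 81.3 and 87.4 in section A and 153, 104 and 94.3 in section E. For *kcns2*, a potassium channel subunit, it was 5.02, with 26.8, 25.6 and 33.8 in section A and 127, 112 and 80.2 in section E at the 1K-cell stage, and 4.03, 3.13 and 4.60 in section A and 783, 296 and 438 in section E at the 1-cell stage. For *pclo*, a scaffold protein of synapses, it was 3.98, with 7.06, 9.67 and 9.81 in section A and 154, 73.2 and 116 in section E at the 1K-cell stage, and 3.02, 0 and 2.88 in section A and 733, 197 and 360 in section E at the 1-cell stage. For a transcript of *slc25a36*, a pyrimidine nucleotide carrier, it was 4.01, with 28.3, 8.98 and 15.3 in section A and 33.7, 34.3 and 22.9 in section E at the 1K-cell stage, and 0, 4.17 and 6.33 in section A and 73.8, 95.0 and 148 in section E at the 1-cell stage.

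Negative changes were fewer. For *chmp7*, an ESCRT protein, the change was -9.90, and for *hspg2*, the proteoglycan perlecan, -9.38. Both had 0, 0 and 0 in section E at the 1-cell stage and 110 to 113 (*chmp7*) or 49.5 to 77.6 (*hspg2*) in section A, so that neither value is a fold. At the 1K-cell stage *chmp7* had 133, 86.4 and 80.6 in section A and 89.0, 102 and 94.5 in section E, and *hspg2* 281, 289 and 230 in section A and 414, 307 and 282 in section E. For *ywhaq*, a 14-3-3 protein, the change was -6.05 and rests on near-zero 1K-cell counts, with 0, 0 and 0 in section A and 0, 6.10 and 10.0 in section E. For *prickle1*, a protein of planar cell polarity, it was -1.96, with 41.0, 33.9 and 44.7 in section A and 115, 201 and 123 in section E at the 1K-cell stage, and 53.4, 20.8 and 42.0 in section A and 34.3, 32.3 and 36.7 in section E at the 1-cell stage. For *eloa3d*, an elongin A relative, it was -1.90, with 107, 137 and 162 in section A and 121, 180 and 162 in section E at the 1K-cell stage, and 192, 171 and 165 in section A and 73.8, 25.1 and 69.8 in section E at the 1-cell stage. Transcripts of a shared symbol can trade reads in the estimate, and the part of this in the zeros was not tested.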

How the results depend on the processing

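No called pole difference of a named transcript changed direction under any alternative. The 1346 calls became 2559 by DESeq2, 165 with only the 6 libraries of sections A and E, 2496 at an adjusted p under 0.05 and 391 to 452 without 1 embryo. The 223 transcripts higher in section A became 756 by DESeq2, 377 per symbol, 527 with library size alone, 2 with the 6 libraries, 761 at an adjusted p under 0.05 and 5 to 15 without 1 embryo. The 1123 higher in section E became 1803 by DESeq2, 163 with the 6 libraries, 1735 at an adjusted p under 0.05 and 386 to 439 without 1 embryo. Without the replicate block, that is without pairing, the counts were 95 higher in section A and 992 higher in section E, and 1039 of the 1346 calls were shared. DESeq2 shared all 1346 and library size alone 1211. The change since the 64-cell stage had 0 calls, 107 by DESeq2 and 0 to 1 without a 1K-cell embryo. That since the 1-cell stage had 500, 924 by DESeq2, 247 without the block and 280 to 309 without a 1K-cell embryo. TMM (1350 calls), the low-count filter (1383) and non-robust moderation (1357) kept all counts within 1.5 times. Depth limits transcripts with few counts, and with 3 embryos small differences stay near the threshold. The smaller count without an embryo goes with fewer residual degrees of freedom by construction.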
